A study of Caenorhabditis elegans with 8 samples.

Results

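The genes of nonsense-mediated mRNA decay in Caenorhabditis elegans are described here through the sequencing reads that span their introns. Of 10 listed genes (smg-1, smg-2, smg-3, smg-4, smg-5, smg-6, smg-8, smg-9, smgl-1 and smgl-2), 9 had at least 1 intron in the authors' table of junction reads, out of 5762 genes in all. They carried 40 of its 20324 introns. For smg-9 only exon signals were available. The table also held smg-7, which was not among the listed genes and is given beside them without entering their counts. Each gene was found by its sequence name, and the symbol was taken from the reference annotation.

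RNA came from whole adult worms of the N2 wild-type strain, pooled from at least 100 adults per condition. The treated worms, spk-1(RNAi), ate bacteria making spk-1 double-stranded RNA, and the control worms ate bacteria with the empty feeding vector L4440. All had been grown at 20 °C and were fed on these bacteria for 24 h at 25 °C from the fourth larval stage, and each group held 4 libraries. The labels number the replicates without saying whether each was a culture of its own. All p-values therefore describe the spread among these libraries, part or all of which may be technical.

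Nonsense-mediated decay destroys mRNAs whose reading frame stops too early, among them many products of splicing errors. The SMG-2 protein, an RNA helicase known in other animals as UPF1, recognises the early stop together with SMG-3 and SMG-4, the worm UPF2 and UPF3. The kinase SMG-1 phosphorylates SMG-2, and SMG-5, SMG-6 and SMG-7 act on the phosphorylated form. SPK-1 is a kinase of serine- and arginine-rich splicing factors, so the comparison asks whether the transcripts of the decay machinery changed when that kinase was depleted.

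Among the decay genes no change in junction reads passed the test. edgeR's quasi-likelihood test, adjusted over all 5762 genes by the Benjamini-Hochberg method at 0.05, called 0 of the 9 genes, and 0 had an unadjusted p under 0.05. It called 0% of all genes, with 0.937% at an unadjusted p under 0.05. With replicate number as a block, 0 of the 9 were called and 1 had an unadjusted p under 0.05, which was smgl-2, against 9.6% of all genes. DESeq2's Wald test called 0 of the 9, as it did of all genes, and 0 of the 9 had an unadjusted p under 0.05, against 1.46% of all. DESeq2 with the block called 0 of the 9, against 0.972% of all genes, and 0 had an unadjusted p under 0.05, against 9.82%. The groups of libraries did not separate for any of the 9 (0 of 9, against 1.04% of all genes). The 9 log2 fold changes ran from -0.33 to 0.06 with a median of -0.20, against a median of -0.0045 over all genes, and 7 of the 9 were below 0, as were 51.0% of all genes. With smg-7 included the median was -0.17 and 8 of 10 were below 0.

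**Figure D1:**
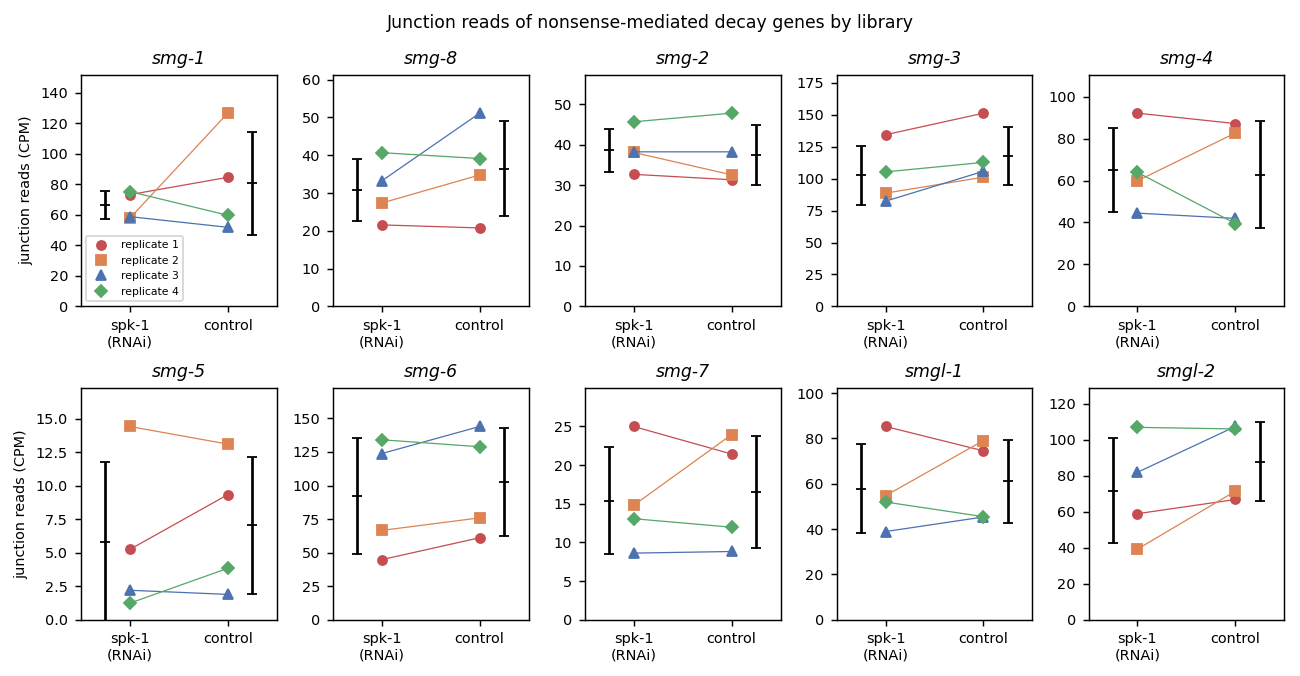
Junction reads per gene in CPM (reads scaled to the size of each library, linear axis) in each library, spk-1(RNAi) on the left and control on the right of each panel, with lines joining libraries of the same replicate number and black bars giving mean ± SD of 4 libraries (the lower bar of smg-5 in spk-1(RNAi) is clipped at 0). In all 10 genes the 2 groups overlap, and smg-3 is the gene whose 4 lines all lie lower in spk-1(RNAi).

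Depth bounds these statements. The 4 spk-1(RNAi) libraries held 2660062 to 40426751 junction reads and the 4 control libraries 1821717 to 47299659, with replicates 1 and 2 shallow and 3 and 4 deep in both groups. The 9 genes together took 0.0635%, 0.0454%, 0.0443% and 0.0566% of junction reads in spk-1(RNAi) replicates 1 to 4, against 0.0666%, 0.0750%, 0.0487% and 0.0529% in the controls. The widest exact 95% interval was that of control replicate 2, at 0.0711% to 0.0791%, and these intervals cover counting error only. Treatment was visible at spk-1 itself: over 8 of its 10 introns, leaving out those after exons 6 and 7, the summed reads were 105.4 ± 43.5 CPM in spk-1(RNAi) and 415.8 ± 52.4 CPM in control (SD, n = 4), lower in 4 of 4 pairs. The choice of those 8 introns followed an earlier look at these data. On the reads of all 10 introns spk-1 was not called by edgeR's gene test, which called 0 of 5762 genes with or without the block.

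The rule by which introns entered the table also touches these genes. Every listed intron had at least 21 reads in each control library, whereas after spk-1(RNAi) counts went down to 1. In control replicate 2, the shallowest library, 21 reads amount to 11.5 CPM on plain totals, against 2.65, 0.465 and 0.745 CPM for the lowest counts of control replicates 1, 3 and 4. On the scaled library sizes used for the intron values below, 21 reads in control replicate 2 are 9.40 CPM. Of the 131 introns annotated in the 10 listed genes, 40 (30.5%) were in the table. Of these 40, 18 had under 30 reads in control replicate 2, against 26.5% of all introns. Values of weakly covered introns in that library therefore had to lie at or above this floor, and no such floor held after spk-1(RNAi). Its part in the results was not tested.

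The kinase complex comes first. SMG-1 belongs to the family of phosphatidylinositol 3-kinase-related protein kinases, and in human cells the proteins SMG8 and SMG9 bind it. The smg-1 gene (C48B6.6, chromosome I) had 73.2, 57.7, 58.8 and 75.2 CPM in spk-1(RNAi) replicates 1 to 4 and 84.5, 127, 51.8 and 59.7 CPM in the control replicates. The high value was that of control replicate 2. Of the other controls, replicate 1 lay above all spk-1(RNAi) libraries, replicate 3 below all of them and replicate 4 among them. The log2 fold change was -0.27 (SE 0.29, adjusted p = 1.0 in edgeR), with a 95% interval of -0.92 to 0.37. Without control replicate 2 it was 0.022, and with the block and pair 2 left out 0.11. Control replicate 2 was the highest of the 4 controls at 7 of the 10 smg-1 introns, against 29.5% of all introns. Over the whole table this held for 21.7% of introns with under 30 reads in that library and 32.3% of those with 30 or more. That split is by the count of control replicate 2 itself, so it cannot show what part the floor had.

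The smg-8 gene (K04B12.3, chromosome II) had 21.6, 27.4, 33.2 and 40.7 CPM in spk-1(RNAi) and 20.8, 34.8, 51.1 and 39.1 CPM in control. The groups overlapped, and spk-1(RNAi) over control gave 1.04, 0.786, 0.649 and 1.04 in pairs 1 to 4. A log2 fold change of -0.24 (SE 0.32) had an adjusted p of 1.0 in edgeR. The other partner, smg-9 (Y54E2A.2, chromosome II), had 0 introns listed of 7 annotated. In the authors' deposited exon table its 5 bins had mean normalized signals of 116 to 192, and the smallest p of these bins was 0.479.

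The helicase and its partners follow. For smg-2 (Y48G8AL.6, chromosome I) the values were 32.7, 38.1, 38.2 and 45.6 CPM in spk-1(RNAi) and 31.3, 32.5, 38.2 and 47.8 CPM in control. Matched libraries lay close together, with ratios of 1.04, 1.17, 1.0 and 0.955 in pairs 1 to 4. On the log2 scale the change was 0.04 (SE 0.23, adjusted p = 1.0 in edgeR), and the 95% interval of the blocked fit was 0.824- to 1.29-fold.

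The gene of the UPF2 protein, smg-3 (Y73B6BL.18, chromosome IV), had 134, 88.7, 82.4 and 105 CPM in spk-1(RNAi) and 151, 101, 106 and 113 CPM in control. It was lower in 4 of 4 pairs, the only listed gene of which this held, against 9.55% of all genes, at ratios of 0.888, 0.877, 0.779 and 0.934. No listed gene was higher in 4 of 4 pairs (0 of 9, against 9.63%). For smg-3 the groups still overlapped, and its log2 fold change was -0.20 (SE 0.22, adjusted p = 1.0 in edgeR) and with the block -0.21 (SE 0.11, adjusted p = 0.559).

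The UPF3 gene smg-4 (F46B6.3, chromosome V) had 92.1, 59.9, 44.5 and 63.9 CPM in spk-1(RNAi) and 87.2, 82.7, 41.9 and 39.5 CPM in control. Pairs disagreed, with ratios of 1.06, 0.724, 1.06 and 1.62. Its log2 fold change was 0.06 (SE 0.33, adjusted p = 1.0 in edgeR), and it was -0.15 in replicates 1 and 2 alone and 0.40 in replicates 3 and 4 alone.

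Next come the genes that act on phosphorylated SMG-2. In worms lacking SMG-5, SMG-6 or SMG-7, phosphorylated SMG-2 builds up, and SMG6 of flies and humans is the endonuclease that cuts the target mRNA. For smg-6 (Y54F10AL.2, chromosome III) the spk-1(RNAi) libraries had 44.7, 66.5, 124 and 134 CPM and the control libraries 61.1, 75.9, 144 and 129 CPM. In both groups replicates 3 and 4 stood above replicates 1 and 2, by 2.14-fold on average. In edgeR smg-6 changed by -0.15 on the log2 scale (SE 0.39, adjusted p = 1.0), and with the block, which removes the spread between replicate numbers, -0.19 (SE 0.12, adjusted p = 0.616).

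The smg-5 gene (W02D3.8, chromosome I) was the least covered, with 1 listed intron and 26, 39, 78 and 33 reads in spk-1(RNAi) against 84, 29, 74 and 98 reads in control. These were 5.24, 14.4, 2.20 and 1.23 CPM in spk-1(RNAi) and 9.33, 13.1, 1.89 and 3.83 CPM in control. Its log2 fold change of -0.33 (SE 0.85, adjusted p = 1.0 in edgeR) came with a 95% interval of 0.215- to 2.95-fold. With the block the interval was 0.377- to 1.29-fold (log2 fold change -0.52, SE 0.40, adjusted p = 0.708). The unlisted smg-7 (Y73B6A.4, chromosome IV) had 25.0, 14.8, 8.61 and 13.1 CPM in spk-1(RNAi) and 21.4, 23.9, 8.82 and 11.96 CPM in control, and changed by -0.10 on the log2 scale (SE 0.44, adjusted p = 1.0 in edgeR).

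The last genes, smgl-1 and smgl-2, were found in worms as essential genes needed for decay and are the counterparts of human NBAS and of the helicase DHX34. The smgl-2 gene (Y37E11AM.1, chromosome IV) had 58.9, 39.2, 81.8 and 107 CPM in spk-1(RNAi) and 66.7, 71.4, 107 and 106 CPM in control. It was lower in pairs 1, 2 and 3, at ratios of 0.882, 0.549 and 0.763, and at 1.01 in pair 4. Its log2 fold change was -0.29 (SE 0.32, adjusted p = 1.0 in edgeR). With the block it was -0.32 (SE 0.14, unadjusted p = 0.0474, adjusted p = 0.513), and the blocked interval was 0.643- to 0.997-fold.

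For smgl-1 (F20G4.1, chromosome I) the spk-1(RNAi) libraries had 85.3, 54.7, 38.9 and 51.9 CPM and the control libraries 74.5, 79.1, 45.3 and 45.5 CPM. The order of the groups changed from pair to pair, with ratios of 1.14, 0.692, 0.858 and 1.14. In edgeR the gene stood at -0.08 on the log2 scale (SE 0.30, adjusted p = 1.0).

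**Figure D2:**
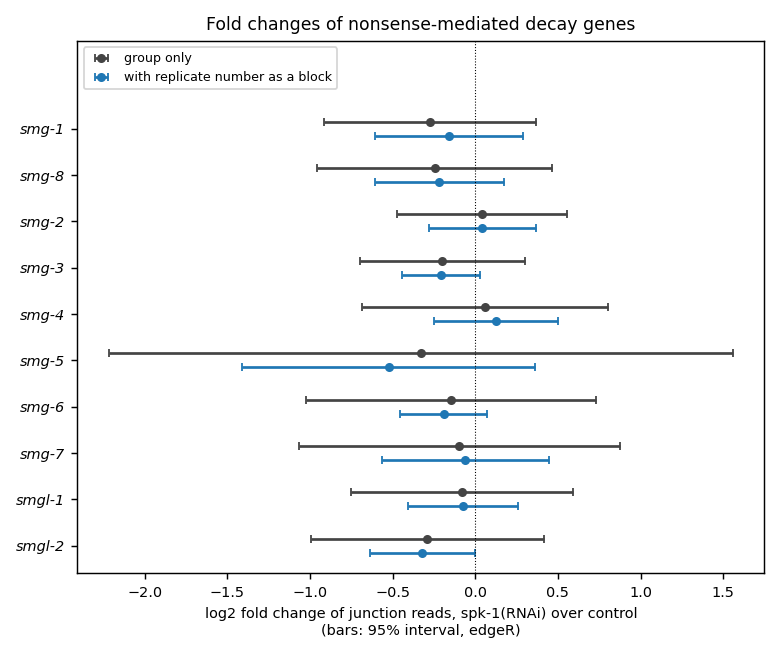
Log2 fold change of junction reads (spk-1(RNAi) over control, x axis) for each gene (y axis), with 95% intervals from edgeR's quasi-likelihood fit on group alone (grey) and with replicate number as a block (blue). All grey intervals span 0, with point estimates of -0.33 to 0.06, and smg-5 has the widest. Of the blue intervals, that of smgl-2 lies below 0, at -0.638 to -0.00447, and the others span 0.

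By pair, the median log2 ratio of the 9 genes was -0.17, -0.35, -0.22 and 0.06 in pairs 1 to 4, with 5, 7, 5 and 3 of the 9 lower in spk-1(RNAi). Of all genes, 52.0%, 50.0%, 50.3% and 49.4% were lower in these pairs, and their median was within 0.01 of 0 in each. Without control replicate 2, the median of the 9 fold changes was -0.02.

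The levels of the genes were compared per listed intron, because a junction is crossed over the same width in every gene. In spk-1(RNAi) the order ran from smg-4 at 21.7 ± 6.62 CPM per intron, through smg-2 at 19.3 ± 2.67, smg-6 at 18.5 ± 8.69, smg-8 at 15.4 ± 4.09, smg-3 at 14.7 ± 3.32, smgl-2 at 14.3 ± 5.84 and smgl-1 at 11.5 ± 3.93, to smg-7 at 7.68 ± 3.46, smg-1 at 6.62 ± 0.926 and smg-5 at 5.77 ± 6.01 (SD, n = 4). No neighbours in this order differed by more than their SDs. In control the order was smg-4, smg-6, smg-2, smg-8, smgl-2, smg-3, smgl-1, smg-7, smg-1 and smg-5, at 20.9 ± 8.54 for the first and 7.04 ± 5.13 for the last. Only the steps from smg-3 at 16.8 ± 3.27 to smgl-1 at 12.2 ± 3.64 and from smgl-1 to smg-7 at 8.27 ± 3.64 exceeded the SDs of both neighbours. Since weakly covered introns were not listed, these levels describe the listed introns and not whole genes.

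Replicate number separated the libraries of several genes more than treatment did, and this was common over the whole table. In 5 of the 9 genes the 4 libraries of replicates 1 and 2 did not overlap the 4 of replicates 3 and 4, against 47% of all genes. Replicates 3 and 4 were higher for smg-2, smg-6 and smgl-2, on average by 1.26-, 2.14- and 1.70-fold. Replicates 1 and 2 were higher for smg-5 and smgl-1, by 4.602- and 1.62-fold, and also for smg-7, by 2.01-fold. Nothing in the labels says how these replicates differed, and no test was made of this split.

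Single introns were examined next, each tested among all 20324. In edgeR 0 of the 40 introns passed, and 0 had an unadjusted p under 0.05, against 0% of all introns called and 0.851% at an unadjusted p under 0.05. With the block 0 of the 40 were called and 1 had an unadjusted p under 0.05, against 0.0689% called and 8.4% at an unadjusted p under 0.05 among all introns. DESeq2's Wald test called 0 of the 40, against 0.0295% of all, and 1 had an unadjusted p under 0.05, against 1.97%. DESeq2 with the block called 0 of the 40, against 0.251%, and 2 had an unadjusted p under 0.05, against 7.78%. The log2 fold changes ran from -0.76 to 0.38 with a median of -0.18, and 30 of the 40 were below 0, against 49.8% of all introns. In 4 of 4 pairs 6 of the 40 were lower, against 7.95% of all introns, of which 3 lay in smgl-2, 2 in smg-3 and 1 in smg-1. Introns of 1 gene share its transcripts and are not independent. By the authors' deposited p, 4 of the 40 introns were under 0.05, which is 10% of them, against 6.01% of all introns. These, named after their values were seen, lay after exons 6 and 13 of smg-3, exon 17 of smg-6 and exon 8 of smg-8.

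**Figure D3:**
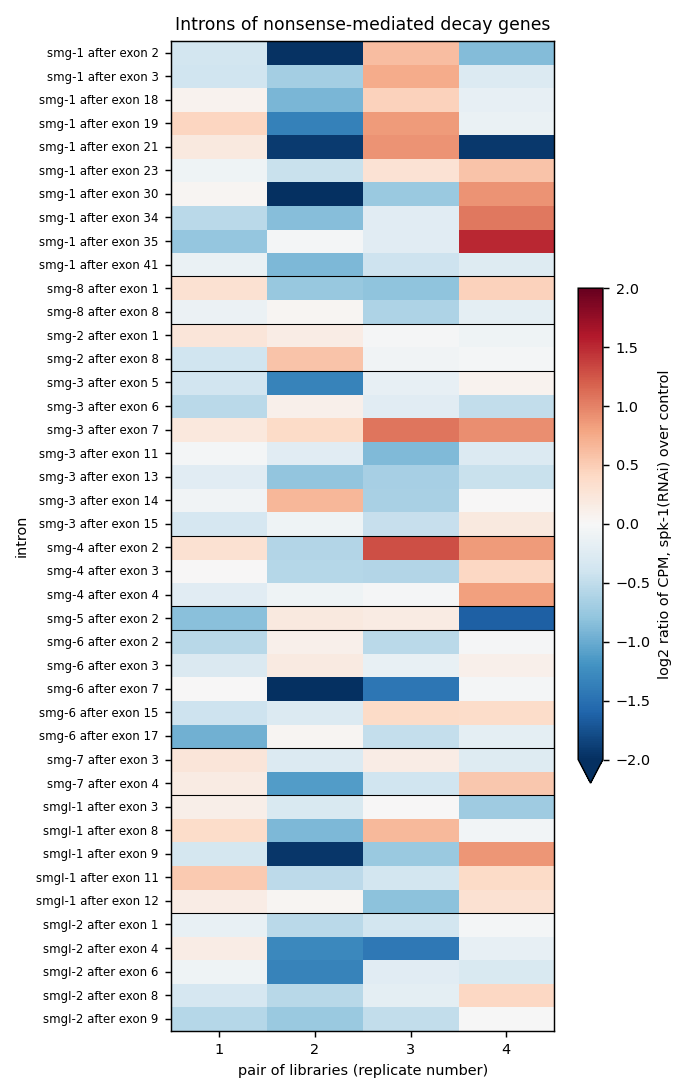
Log2 ratio of CPM, spk-1(RNAi) over control, for each listed intron (rows, grouped by gene) in each pair of libraries (columns). Colours saturate at -2 and 2, smg-7 is drawn too, and pair 2 has the lowest median, -0.54 over the 40 introns of the listed genes, against -0.12, -0.22 and -0.032 in pairs 1, 3 and 4.

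The groups separated in the intron after exon 13 of smg-3 (transcript Y73B6BL.18a.4, ce10 chromosome IV, 6365840 to 6368118, 2279 nt). It had 7.99, 7.28, 7.22 and 8.57 CPM in spk-1(RNAi) and 9.39, 12.5, 11.5 and 11.7 CPM in control. All spk-1(RNAi) libraries lay below all control libraries, the only one of the 40 introns without overlap, against 0.856% of all introns. The value of control replicate 2 rests on 28 reads. Its listing floor of 21 reads, or 9.40 CPM, lay above every spk-1(RNAi) value of this intron, so that library could not have overlapped them. Its log2 fold change was -0.53 (SE 0.29, adjusted p = 1.0 in edgeR) and with the block -0.52 (SE 0.27, adjusted p = 0.634). In the authors' deposited table the p of this intron was 0.0356.

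In the opposite direction stood the intron after exon 7 of smg-3 (6370931 to 6370981, 51 nt). It had 28.6, 12.3, 3.89 and 7.45 CPM in spk-1(RNAi) and 24.8, 9.40, 1.85 and 3.91 CPM in control. The value of control replicate 2 rests on 21 reads, the lowest count listed there. This intron was higher in 4 of 4 pairs, the only one of the 40, against 8.28% of all introns. The levels of the groups overlapped, because replicates 1 and 2 stood 4.39-fold above 3 and 4. It changed by 0.38 on the log2 scale (SE 0.78, adjusted p = 1.0 in edgeR) and with the block 0.66 (SE 0.26, unadjusted p = 0.0213, adjusted p = 0.516).

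These introns were also set against the rest of their own gene, with edgeR's diffSpliceDGE over the 4370 genes with at least 2 introns. Of the 8 decay genes tested 0 were called, and 0 reached an unadjusted p under 0.05, against 0.0229% called and 0.229% at an unadjusted p under 0.05 among all genes. In edgeR with the block 0 of the 8 were called, and smg-3 was the 1 gene at an unadjusted p under 0.05 (adjusted p = 0.812), against 0.0686% called and 5.7% at an unadjusted p under 0.05. Within smg-3 the blocked unadjusted p of the intron after exon 7 was 0.00183, with an adjusted p of 0.880 over all introns. None of the 40 introns shared a splice donor or acceptor with another listed intron, so a choice between splice sites could not be measured in these genes. Introns used mainly after spk-1(RNAi), and retained introns, are not measured by the table.

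The intron after exon 7 of smg-6 (transcript Y54F10AL.2c, ce10 chromosome III, 2478243 to 2478301, 59 nt) had the lowest fold change, with 6.13, 0.766, 2.65 and 7.53 CPM in spk-1(RNAi) and 6.09, 9.40, 7.22 and 7.73 CPM in control. Replicates 2 and 3 were low in spk-1(RNAi) while 1 and 4 matched control, and the value of replicate 2 rests on 2 reads. That of control replicate 2 rests on 21 reads, the lowest count listed in that library. The log2 fold change of this intron was -0.76 (SE 0.56, adjusted p = 1.0 in edgeR).

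An intron of smg-4 and another of smg-6 were chosen after their values were seen. In smg-4 the intron after exon 2 (transcript F46B6.3b, ce10 chromosome V, 9777526 to 9777578, 53 nt) had 38.6, 23.0, 9.34 and 7.30 CPM in spk-1(RNAi) and 31.2, 34.5, 3.84 and 4.03 CPM in control. It stood 5.19-fold higher in replicates 1 and 2 than in 3 and 4, the largest such ratio among the 40 introns. Its log2 fold change was 0.12 (SE 0.77, adjusted p = 1.0 in edgeR). The intron after exon 3 of smg-6 was the largest in the other direction, 3.65-fold higher in replicates 3 and 4, with 14.1, 28.0, 71.8 and 80.4 CPM in spk-1(RNAi) and 17.2, 24.6, 79.7 and 74.6 CPM in control. For 15 of the 40 introns the libraries of replicates 1 and 2 did not overlap those of 3 and 4, with 7 higher in 3 and 4 and 8 lower, against 40.1% of all introns.

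**Figure D4:**
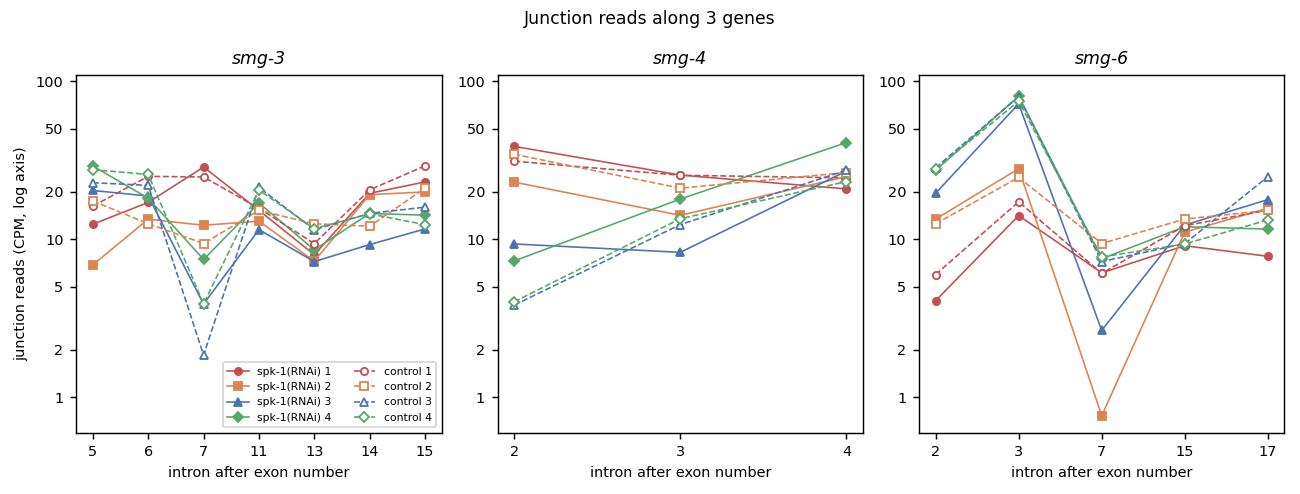
CPM (log axis) over the listed introns of smg-3, smg-4 and smg-6 in the order of their exon numbers, with filled symbols and solid lines for spk-1(RNAi) and open symbols and dashed lines for control. After exon 7 of smg-3 and exon 2 of smg-4, replicates 1 and 2 of both groups lie above replicates 3 and 4, and after exon 3 of smg-6 they lie below.

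Exon signals in the authors' deposited DEXSeq table gave a separate view, without a direction of change. Of the 151 bins of the 10 listed genes that had a p, 3 had p under 0.05 (1.99%), against 0.986% of all 112784 bins, and 0 had an adjusted p under 0.05, against 0.00355% of all. Of the 3 bins, 2 were in smg-3, with a smallest p of 0.0135 at bin 8, whose mean signal of 6.16 was far under the median of 152 over the bins of that gene. The other was the last bin of smgl-1, with a mean signal of 191, the lowest of the 12 bins of that gene, whose median was 484. All adjusted p of these genes were 1 in that table.

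Other genes of RNA surveillance and decay were then read from lists fixed by function. Of the exon junction complex list, which marks spliced mRNA, 6 of 8 genes were measured and 0 were called by edgeR with or without the block, with a median log2 fold change of 0.07. In the termination and poly(A) binding list 13 of 15 were measured, with 0 called and a median of -0.01. Of these 13, 5 had fold changes above 0 and 8 below. Over all genes edgeR called 0% with or without the block, 51.0% had fold changes below 0 and the median was -0.0045.

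In the decapping and 5′ decay list 13 of 14 genes were measured and 0 were called. The list had 6 fold changes above 0 and 7 below, with a median of -0.00040. Its lowest blocked p was that of edc-4, whose protein promotes decapping, at 153 ± 15.9 CPM in spk-1(RNAi) and 125 ± 20.7 in control (SD, n = 4, adjusted p = 0.516). The helicase gene cgh-1 had 777 ± 234 CPM in spk-1(RNAi) and 905 ± 292 in control (adjusted p = 0.583 in edgeR's blocked test). It was lower in 4 of 4 pairs, as were 9.55% of all genes.

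Deadenylation and exosome genes were measured in 24 of 30, with 0 called and a median of 0.02. Of these 24, 14 had fold changes above 0 and 10 below. The exosome subunit gene exos-1 had 12.03 ± 2.43 CPM in spk-1(RNAi) and 20.0 ± 3.55 in control (SD, n = 4). It was lower in 4 of 4 pairs, as were 9.55% of all genes. Its change was -0.74 on the log2 scale (SE 0.29, unadjusted p = 0.0271, adjusted p = 1.0 in edgeR, and 0.342 with the block). The groups overlapped, with 15.2 CPM in spk-1(RNAi) replicate 2 and 15.1 in control replicate 1, and spk-1(RNAi) replicates 1 and 2 held 56 and 41 reads. In edgeR without the block exos-1 was the only gene of the 6 function lists with an unadjusted p under 0.05. These lists held 6, 13, 13, 24, 12 and 17 measured genes, and 0.937% of all genes had such a p. The deadenylase subunit gene ntl-3 had 233 ± 73.7 CPM in spk-1(RNAi) and 268 ± 71.2 in control (blocked adjusted p = 0.516). The next by blocked p, ntl-9, had 93.6 ± 22.2 CPM in spk-1(RNAi) and 81.8 ± 27.0 in control, higher in 3 of 4 pairs.

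Among the kinases related to SMG-1, their chaperones and the phosphatase PP2A, 12 of 17 genes were measured and 0 were called, with a median of 0.05. Fold changes were above 0 for 7 of the 12 and below 0 for 5. The chaperone gene ruvb-1 had 166 ± 9.38 CPM in spk-1(RNAi) and 191 ± 27.5 in control (SD, n = 4, blocked adjusted p = 0.571 in edgeR). The next by blocked p, paa-1, had 296 ± 31.0 CPM in spk-1(RNAi) and 262 ± 41.1 in control, higher in 3 of 4 pairs. The last list held genes with splice forms that the smg genes are known, or were taken here, to clear. Of these, 17 of 20 were measured and 0 were called, against 0% of all genes. Of the 17, 12 had fold changes below 0 and 5 above, against 51.0% of all genes below 0. The median of this list was -0.08. The ribosomal protein gene rpl-10a had 2082 ± 164 CPM in spk-1(RNAi) and 2483 ± 276 in control, and the splicing factor gene rsp-5 had 215 ± 114 CPM in spk-1(RNAi) and 285 ± 178 in control (SD, n = 4, blocked adjusted p of 0.559 and 0.468 in edgeR). Next by blocked p was rsp-7, at 64.1 ± 23.0 CPM in spk-1(RNAi) and 55.6 ± 19.1 in control. It was higher in 4 of 4 pairs, as were 9.63% of all genes. Summed junction reads do not separate productive from unproductive forms.

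The genes whose profile over the 8 libraries lay nearest to that of the decay genes were F36A2.9, dnc-1, pgap-1, T21B10.3 and vab-1. Likeness was the root mean square difference between a gene's log2 CPM, centred on its mean, and the median centred profile of the 9 genes, over 4726 other genes of at least 20 CPM. The values were 0.0575, 0.0668, 0.0955, 0.0961 and 0.0976, against a median of 0.402. The decay genes themselves ranged from 0.157 for smg-3 to 1.24 for smg-5. Besides smg-5, smg-6 at 0.656, smg-8 at 0.486 and smgl-2 at 0.460 lay further from this profile than that median of 0.402. The other listed genes lay nearer, so the profile is a median and not a pattern that all of them share.

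Markers of tissue were read as a measure of what the whole worms held. All 8 germline markers were measured, at a summed 3293 to 4971 CPM in spk-1(RNAi) and 3168 to 5184 in control, higher in 1 of 4 pairs. Muscle markers were measured in 3 of 5, at 2508 to 4123 CPM in spk-1(RNAi) and 1710 to 3827 in control, and were higher in 4 of 4 pairs. Cuticle markers were measured in 2 of 4, at 395 to 950 CPM in spk-1(RNAi) and 333 to 906 in control, also higher in 4 of 4 pairs. These directions are those of the sums. Singly, unc-54 of muscle and col-140 of cuticle were lower in pair 3, at ratios of 0.918 and 0.969. The other measured muscle and cuticle markers were higher in 4 of 4 pairs, as were 9.63% of all genes. The intestinal yolk genes vit-2 and vit-6 summed to 22433 to 39788 CPM in spk-1(RNAi) and 18706 to 40155 in control. Their sum was higher in 2 of 4 pairs, and 0 of 2 sperm markers were listed. In edgeR's blocked test 3 of 3 muscle and 1 of 2 cuticle markers had an unadjusted p under 0.05, against 9.6% of all genes. This held for 0 of 8 germline and 0 of 2 intestinal markers, and 0 of these markers were called. In whole animals a smaller share of a tissue and less RNA per cell cannot be told apart, and the part of tissue makeup in the values above was not tested.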

How the data were processed

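Reads over introns were measured by RNA sequencing of polyadenylated RNA, in libraries that mark strand by dUTP per the labels' protocols. The authors' junction table holds read counts per intron, not normalized, per the file headers, and coordinates were raised to count from 1. Per the submitters' processing notes, TopHat 1.4.1, Bowtie2 2.0.0 and build ce10 were named, without roles. The sources used here do not give the read counter, annotation or listing rule. The authors' deposited table of exon bins gives p-values and a mean normalized signal per bin, per the file headers.

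Of 20349 introns, 25 stood on both strands, and 1 copy of each was kept. One heading was repeated over 2 spk-1(RNAi) columns. They were numbered 1 and 4, because dividing each by its control of that number gave the authors' deposited ratio in 100% of introns (in the printed digits, to within 1 in the last). Introns with no gene (160, or 0.308% of reads) were left out of gene tests. Symbols matched 5707 of 5762 sequence names, and all 40 intron lengths matched the annotation of another build (WBcel235). All sample columns were used (0 unused). On the other strand, annotated coding genes overlap smg-3 and smgl-2, and whether counting used strand is not stated.

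Counts were tested with edgeR 4.0.16 in R 4.3.3 (TMM, filterByExpr, group as the only term), and CPM use TMM-scaled library sizes except those of spk-1, which use plain totals. DESeq2 1.42.0, other scaling and filters, left-out libraries, subsets of replicates and the replicate block were alternatives. Libraries were paired by replicate number, which is an assumption of the block and of all ratios by pair. Deviations of same-numbered libraries from their group means correlated at 0.888, 0.691, 0.733 and 0.778 for numbers 1 to 4. With another number the correlations were at most 0.358, 0.244, 0.706 and 0.715. For numbers 3 and 4 these values lay close together, so the correlations hardly tell those pairs apart. The authors' ratios use the same pairs. For numbers 1 and 4 this is no separate evidence, because those spk-1(RNAi) columns were numbered by the ratios. The scripts were tested on simulated data. All listed genes are named, as are introns called, without overlap or at the ends of the fold-change range, and up to 4 genes per list by blocked p. The members and lists were chosen with earlier results of these data known. No sequences are shown, because no table of sequences was used here. The values of 1 gene of the exon junction complex list are not reported here.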

Additional observations from a re-analysis of the deposited data

Results flagged for a closer look

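In 28 groups of 4 libraries (the 10 genes and the introns after exons 7 and 13 of smg-3, exon 2 of smg-4 and exon 7 of smg-6), 0 held a library whose gap to its nearest neighbour, as a share of the group's range, exceeded Dixon's 95% critical value for 4 samples.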

How the results depend on the processing

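Under all alternatives 0 of the 9 listed genes and 0 of their 40 introns were called, and 0 of the 8 genes tested on intron usage (21 alternatives for reads, 19 for usage, since DESeq2 was not run for usage). Leaving out 1 library called 0 genes, 0 introns, 0 shared sites and 1 gene on usage (spk-1) over the whole table, as did all libraries. The count of genes became 56 with DESeq2 and the replicate block, 7 in replicates 3 and 4 alone, and 5 and 7 with the block and pair 1 or 2 left out. The count of introns became 14 with the replicate block, 6 with DESeq2, 51 with both and 55 in replicates 3 and 4 alone, and 29, 14, 12 and 11 with the block and pairs 1 to 4 left out in turn. The count of genes on usage became 3 with the block, 20 in replicates 3 and 4 alone, 0 without the spk-1 introns, and 3, 4, 3 and 3 with the block and each pair left out. The count of 0 of 150 shared splice sites became 6 with the block, and 5, 4, 3 and 4 with each pair left out. The cause was not tested.

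The median log2 fold change of the listed genes, -0.20, ran from -0.21 to -0.016 with 1 library left out, the last without control replicate 2. With 1 library left out, smg-1 ran from -0.44 to 0.022, smg-2 from -0.048 to 0.18, smg-4 from -0.16 to 0.26, smg-5 from -1.29 to 0.099, smg-6 from -0.38 to 0.079, smg-7 from -0.44 to 0.12 and smgl-1 from -0.33 to 0.072. Likewise the intron after exon 7 of smg-3 ran from -0.38 to 1.503, below 0 without spk-1(RNAi) replicate 1, that after exon 2 of smg-4 from -0.48 to 0.59, and cgh-1 from -0.45 to 0.015. With the block and pair 2 left out smg-1 was at 0.11, smg-2 at -0.0057, smg-7 at 0.10 and smgl-1 at 0.051, and with the block and pair 4 left out smg-4 was at -0.080. In replicates 3 and 4 alone smg-1 was at 0.26, smg-2 at -0.046 and smg-7 at 0.050. In replicates 1 and 2 alone smg-4 was at -0.15 and its intron after exon 2 at -0.093. The genes smg-3, smg-8 and smgl-2, and the introns after exon 13 of smg-3 and exon 7 of smg-6, stayed below 0 under every alternative run. With 1 library left out, smg-3 ran from -0.35 to -0.055 (the last without control replicate 1), smg-8 from -0.44 to -0.033 (without control replicate 3) and smgl-2 from -0.55 to -0.087 (without spk-1(RNAi) replicate 2). The replicate block changed no call of a listed gene. With at least 500 reads required, smg-5 gave no value.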
